A study of Canis lupus familiaris with 8 samples.

Results

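Messenger RNA was compared between the pituitary of Chinese Field Dogs under chronic stress exposure and the pituitary of Chinese Field Dogs that were not exposed. The 2 libraries compared are 2 of the 8 in the series, chosen by breed and tissue as labelled, with 1 library on each side. Both came from adult dogs and total RNA, and the arm labelled as treated with "non-disposal" was read as the unexposed one. The same glands of adult Beagles, 1 stressed and 1 unexposed library, served as the nearest comparison, and the other 4 libraries were adrenal cortex. Neither the sex of the dogs, nor the kind or length of the stress, nor the number of dogs in a library is stated, and the extraction note names spleen where the tissue labels name pituitary. With a single library on each side no test of the pair exists, so differences below describe these 2 libraries and not the 2 conditions.

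The pituitary joins an anterior lobe of endocrine cells, a thin intermediate lobe and a posterior lobe of nerve endings and supporting glia called pituicytes. Corticotrophs cut the POMC precursor into adrenocorticotropic hormone, which drives cortisol output from the adrenal cortex, while melanotrophs of the intermediate lobe cut the same precursor into melanocyte-stimulating hormone. Cortisol in turn acts on corticotrophs through the glucocorticoid receptor, and immune signals such as interferons and chemokines act on the gland from its blood vessels and resident macrophages.

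The 4 pituitary libraries held between 14327357 and 15756312 reads, as recovered from the deposited scaled counts, and the 4 adrenal libraries between 15803901 and 18712034. Values are FPKM, fragments scaled to transcript length and to a factor per library that, in these tables, follows the step of the scaled counts and not the total of recovered reads, and each log2 ratio sets stressed over unexposed after adding 1 FPKM to both. Intervals given with a ratio are 95% Clopper-Pearson intervals on the log2 ratio of recovered reads, each multiplied by its library's step, without the added 1. They cover counting error only, and 0 reads allow up to 3. Hormone genes marked both libraries as pituitary: GH1, growth hormone, stood at 81835 FPKM in the stressed and 78999 in the unexposed library, and the somatotroph factor POU1F1 at 92.5 and 93.2. A pair of values joined by "against" gives the stressed library first. Positions are those of the deposited tables, on CanFam3.1.

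Of 14720 genes measured, with a mean of at least 1 FPKM over the pair, 1155 were at least 2-fold higher in the stressed library and 250 at least 2-fold lower, which is 7.85% and 1.7% of them. The median log2 ratio of all genes was -0.03, with 46.6% of genes above 0 and 53.4% below. Genes that were 2-fold higher took 11.9% of the reads of the stressed library against 3.72% of the unexposed one. Among the 1155, 287 were under 1 FPKM in the unexposed library and 486 were at 5 FPKM or more there. The latter are 4.4% of the 11045 genes at that level, of which 188 (1.7%) were 2-fold lower. Fewer than 10 reads in each library lay behind 117 of all genes counted as 2-fold different.

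**Figure D1:**
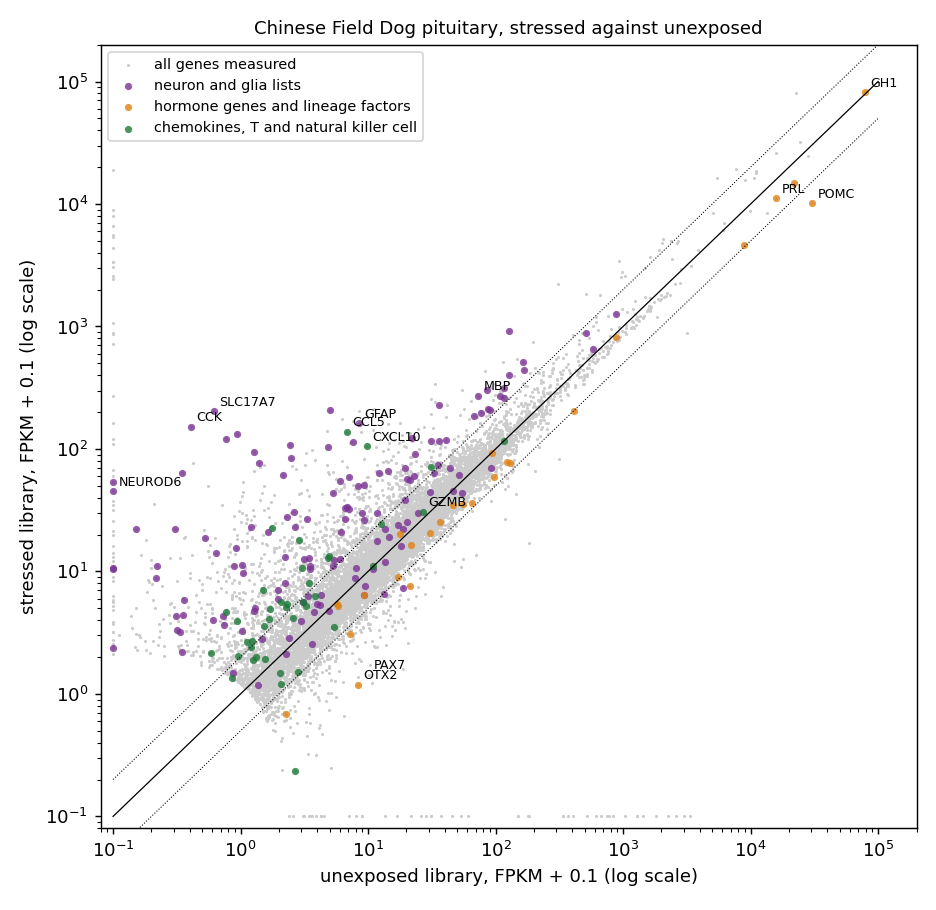
Each point is 1 gene, with its FPKM plus 0.1 in the unexposed (x axis) and the stressed (y axis) Chinese Field Dog pituitary on log axes. The solid line marks equal values and the dotted lines 2-fold differences. Neuron and glia genes lie mostly above the upper dotted line, hormone genes and lineage factors mostly below the solid line. Grey points on the left edge include very short genes on 1 read, such as a fragment of the Xist locus, and genes on many reads, such as KCNG1 (444 reads against 0).

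Forebrain transcripts led the genes with the highest ratios, with 11 of the 15 highest in a forebrain list, and they are described here apart from pituitary and immune genes. The lists were chosen with earlier results of these data known, so the counts below describe this library and are no independent support. In 6 lists of neuron and glia genes, 131 of 145 matched members were higher in the stressed library and 14 lower, with a median log2 ratio of 1.48. Of the 138 measured members 95 were at least 2-fold higher and 1 lower, beside 7.85% and 1.7% of all genes. These lists together took 2.40% of reads in the stressed library, 0.937% in the unexposed one, and 0.922% and 0.926% in the stressed and unexposed Beagle pituitary. The other 3 libraries thus lay close together and the stressed Chinese Field Dog stood apart.

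Excitatory neurons of the cerebral cortex were represented by their defining factors. NEUROD6, a basic helix-loop-helix factor kept by cortical pyramidal cells (ENSCAFG00000003122, chromosome 14, 43914148 to 43915162), held 621 reads or 45.2 FPKM and was listed at 0 in the other 7 libraries, so it was at least 226-fold higher when 0 reads are set at the floor of 3 reads in the unexposed library. By the same bound TBR1, a factor of deep cortical layers, was at least 133-fold higher and NEUROD2 at least 60.1-fold. HPCA, a calcium sensor of forebrain neurons, read 63.3 against 0.246 FPKM (log2 5.69, interval 6.78 to 9.63). NRGN, the postsynaptic protein neurogranin, read 94.6 against 1.17 (log2 5.46). Not every gene of the list was high: CUX1, CUX2, FOXP2, RORB and PCP4 had log2 ratios between -0.39 and 0.33. Of the 27 measured members 18 were 2-fold higher, beside 7.85% of all genes. Over all 28 matched members 23 were higher and 5 lower, with 18 at least 2-fold higher.

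Genes of inhibitory interneurons had the highest median of any list, 2.43 on the log2 scale. Of 21 measured members 19 were at least 2-fold higher, beside 7.85% of all genes. Members near 0 in the unexposed library pass the filter only through the stressed one. Over all 25 matched members the median was 2.17, with 24 higher, 1 lower and 19 at least 2-fold higher. GAD1, the enzyme that makes GABA, read 77.2 FPKM in the stressed and 1.30 in the unexposed library, and 1.54 and 0.747 in the stressed and unexposed Beagle. SST, the peptide somatostatin, read 103 FPKM against 4.75, with 3.05 and 6.19 in the Beagle. Both genes were far higher in that library than in the other 3. Calcium-binding PVALB, which marks fast-spiking cells, read 11 against 0.121 FPKM on 83 reads against 1 (interval of the log2 read ratio 3.98 to 11.82). LHX6, a factor of interneurons born in the medial ganglionic eminence, read 10.3 against 3.41 (log2 1.36). ERBB4, the neuregulin receptor, went the other way at 6.42 against 13.2 (log2 -0.93). TAC1, the substance P precursor, had a log2 FPKM ratio of 6.20 but only 171 reads against 9, so that its read ratio (interval 3.42 to 5.53) lies below its FPKM ratio.

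General neuronal genes followed, although endocrine cells of the pituitary use many of them too. Of 32 synapse and channel genes 31 were higher (26 at least 2-fold, median log2 1.84), and of 19 axon and cytoskeleton genes all 19 were higher (15 at least 2-fold, median 1.46). Over all genes 7.85% were at least 2-fold higher. SYT1, the calcium sensor of vesicle release, read 207 FPKM against 4.95, and 4.54 and 4.24 in the stressed and unexposed Beagle. SNAP25, the membrane-fusion protein that endocrine cells also carry, read 919 against 127, with 129 and 134 in the Beagle. GRIN1, the obligatory subunit of NMDA receptors, read 61.3 against 2.06 (log2 4.35, interval 4.60 to 5.23). Smaller ratios were found for the neurofilament gene NEFM at 38.5 against 19.5 FPKM and STMN2 at 269 against 109.

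Glial genes divided by type. Astrocyte genes had a median log2 ratio of 1.15, with 10 of 18 at least 2-fold higher and 1 lower, beside 7.85% and 1.7% of all genes. AQP4, the astrocyte water channel, read 22.2 FPKM against 0.208, and 0.361 and 0.187 in the stressed and unexposed Beagle. SLC1A2, the main glutamate transporter of astrocytes, read 108 against 2.35 (log2 5.03), and the gene listed under the older name GLAST, another glutamate transporter, read 175 against 6.10 (log2 4.63). ALDH1L1, a folate enzyme widely used as an astrocyte marker, was lower at 7.29 against 18.7 FPKM (log2 -1.25). It read 25.5 and 20.1 in the stressed and unexposed Beagle, so that the stressed Chinese Field Dog library was the lowest of the 4.

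Oligodendrocyte and myelin genes differed less, with a median log2 ratio of 0.51 and 7 of 21 at least 2-fold higher, beside 7.85% of all genes. OLIG1, a factor of the oligodendrocyte lineage, read 32.2 against 6.94 FPKM (log2 2.06), and in the Beagle 6.13 in the stressed against 1.98 in the unexposed library. It was higher in the stressed library of each breed, and 18 of the 21 members were higher in the stressed Beagle, beside 49.6% of all genes. Structural myelin genes varied: MBP, myelin basic protein, read 271 against 73.3 FPKM (log2 1.87), with 37.96 and 21.3 in the Beagle, and MOBP, another basic protein of myelin, had a log2 ratio of 1.66, while MAG, CLDN11 and CNP had log2 ratios of 0.19, -0.15 and 0.53.

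Markers of other brain regions gave a mixed picture. PDYN, the dynorphin precursor, read 38.3 FPKM against 1.32. Among genes of striatal output neurons the dopamine receptor gene DRD1 read 3.95 against 1.69 FPKM (log2 0.88), while ADORA2A and PENK were closer, with ADORA2A at 1.47 against 1.21 and PENK at 253 against 216. Hippocampal granule-cell genes PROX1 and TDO2 had log2 ratios of -0.30 and -0.40. GABRA6 of cerebellar granule cells had 0 reads in both libraries of the pair, and the hindbrain and spinal genes HOXA5, HOXB5 and HOXC6 had at most 2 reads. Of 21 measured members of this list 3 were at least 2-fold higher, beside 7.85% of all genes, with PDYN and the interneuron gene TAC1 among them, and 1 was lower, SIX3, at 16.6 against 47.1 FPKM, beside 1.7%.

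Of 16 matched hypothalamic genes 11 stayed under the filter. Of the 5 measured, 2 were at least 2-fold higher, TRH and CRH, beside 7.85% of all genes. OXT, described below with the posterior lobe, was the 1 at least 2-fold lower, beside 1.7%. SIM1, LHX1 and NPVF had 0 reads in both libraries, HCRT (orexin) had 11 reads in the stressed and 10 in the unexposed library, and PMCH had 3 and 1. TRH, the releasing hormone for thyrotropin, was high at 10.5 FPKM on 298 reads against 3 (interval 5.20 to 9.05), and CRH, the corticotropin-releasing hormone, read 3.14 against 0.934. Both genes are also used outside the hypothalamus, and CRH is in the interneuron list as well.

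Among genes with a unique symbol and under 0.5 FPKM in each of the other 7 libraries, 74 reached 1 FPKM in the stressed Chinese Field Dog pituitary and 18 reached 5 FPKM. No read minimum was set, and the same count was not made for the other libraries. The 15 most abundant of them included the neuronal potassium channel genes KCNG1 (444 reads against 0) and KCNJ9 (8.40 against 0.376 FPKM), the synaptic scaffold gene LRRC7 (12.2 against 0.0997), the receptor phosphatase gene PTPRT (13.5 against 0.312), the serotonin receptor gene HTR1A (7.84 against 0.103) and the neuronal glutamate transporter gene SLC1A6 (8.06 against 0.0900). Another 2 of the 15, a fragment of the Xist locus and a small nucleolar RNA, rested on 1 read each and carry no information.

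**Figure D2:**
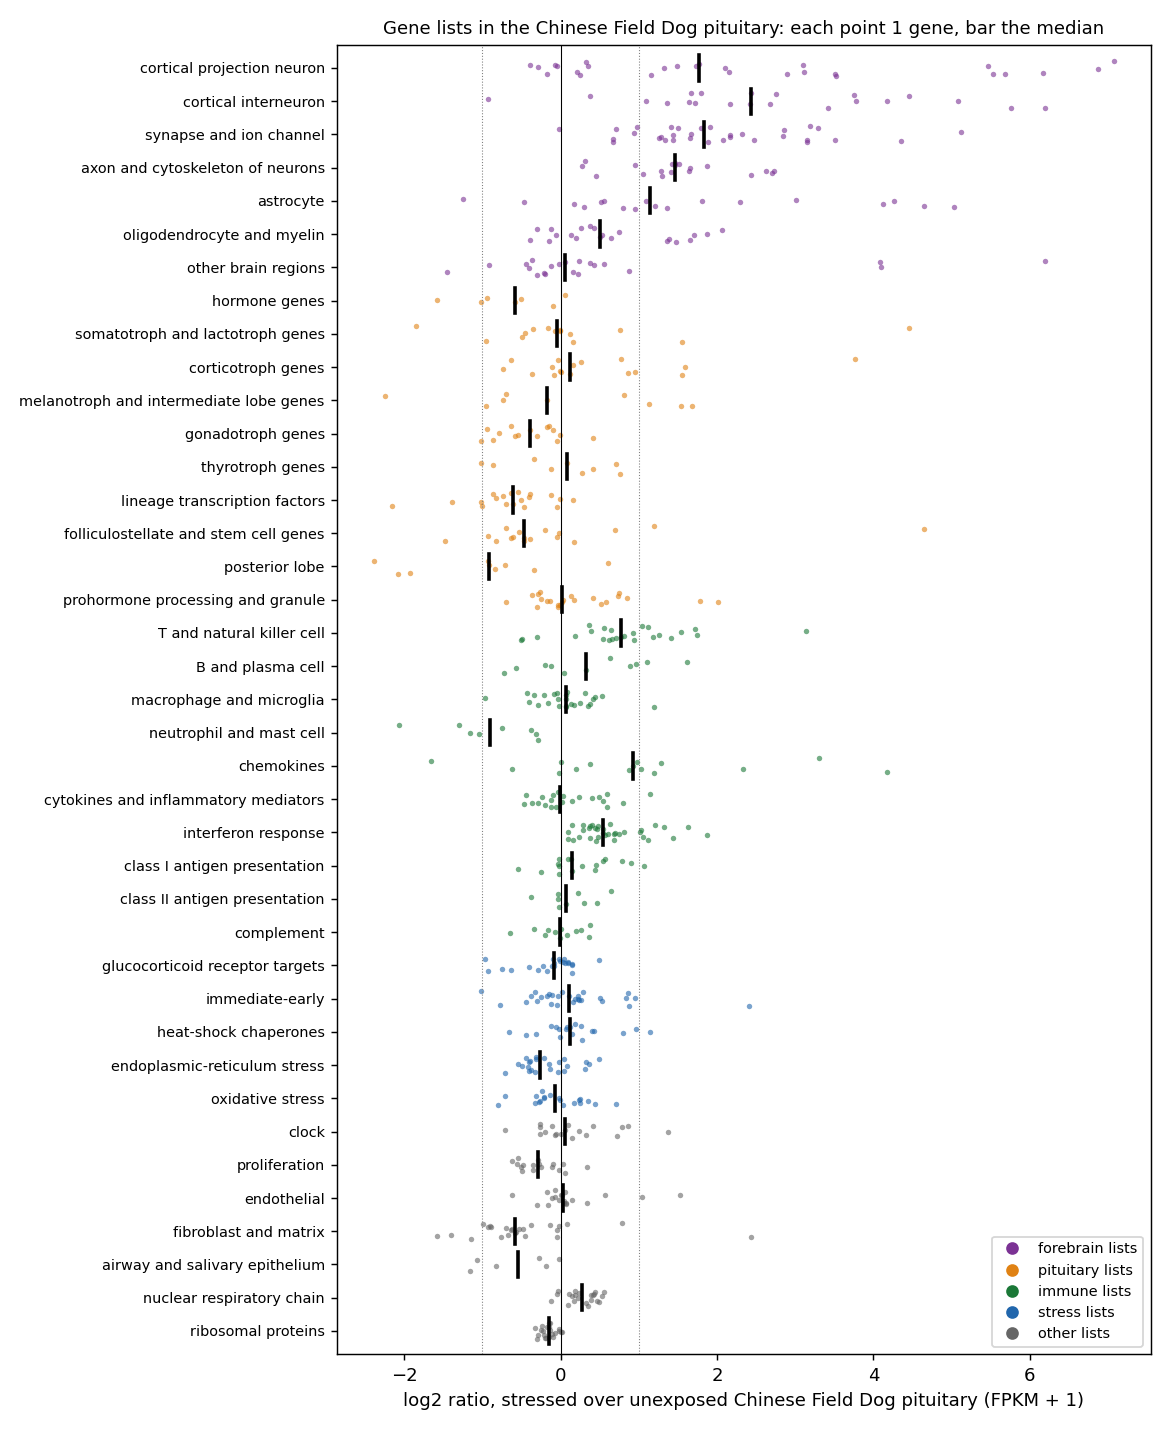
Each point is the log2 ratio of 1 measured gene, stressed over unexposed Chinese Field Dog pituitary (x axis), in rows by gene list, with the black bar at the list's median and dotted lines at 2-fold. Neuron lists have medians of 1.46 to 2.43, chemokine, T cell and interferon lists lie between 0.54 and 0.92, and the posterior lobe, neutrophil and mast cell, lineage factor, hormone, matrix and airway lists lie below -0.5.

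Of the 7 hormone genes 6 were lower in the stressed library, with a median log2 ratio of -0.59, and 2 were at least 2-fold lower, beside 1.7% of all genes. POMC (ENSCAFG00000004149, chromosome 17, 19431584 to 19438100) read 10147 FPKM in the stressed and 30314 in the unexposed library, and 26578 and 23764 in the stressed and unexposed Beagle. Its level was lowest in the stressed Chinese Field Dog, 2.99-fold under the unexposed one, while the other 3 lay close together. TSHB, the thyrotropin subunit, read 203 against 413 FPKM, and 892 and 813 in the Beagle, so both Chinese Field Dog libraries lay below both Beagle libraries. LHB, the luteinizing hormone subunit, read 4603 against 8871, with 9154 and 8286 in the Beagle, and the shared subunit gene CGA read 14716 against 22084, with 22898 and 17056. PRL, prolactin, read 11160 against 15848, with 31807 and 31611. FSHB, the follicle-stimulating hormone subunit, was close at 826 against 882, above 281 and 337 in the Beagle. GH1 (log2 0.05) was the member that was not lower, and it is listed at 0 in the unexposed Beagle pituitary, whose ratio was therefore left out.

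With a median-of-ratios scaling, or ratios centred on the pituitary lists, 1 of the 7 was at least 2-fold lower, POMC. The forebrain reads, 2.40% against 0.937% of the library in the neuron and glia lists, move with the lower hormone values, and their part in them was not tested. In tissue samples such as these, fewer cells of a type and less RNA per cell cannot be told apart.

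Of 19 measured transcription factors that set up pituitary lineages 18 were lower, with a median log2 ratio of -0.61, and 4 were at least 2-fold lower beside 1.7% of all genes. Over all 22 matched members 20 were lower. The stressed library was the lowest of the 4 pituitary libraries for 16 of the 19, beside 41.0% of all genes. OTX2, a factor of the anterior head and the early gland, read 1.09 FPKM in the stressed and 8.27 in the unexposed library, and 14.4 in the stressed and 3.53 in the unexposed Beagle (log2 -2.15, interval -3.78 to -2.18). FOXL2, which drives FSHB, read 2.99 against 7.10, with 6.38 and 7.92 in the Beagle, and SOX3, a factor of the developing hypothalamus and gland, read 0.583 against 2.19, with 1.79 and 1.60.

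TBX19, the factor that switches on POMC, read 76.7 FPKM against 129, and 134 and 142 in the Beagle, again lowest in the stressed Chinese Field Dog library. SOX2, a factor of pituitary stem cells, read 36.2 against 65.1 (log2 -0.83), LHX3, an early factor of the whole gland, 58.9 against 96.6 (log2 -0.70), and GATA2, a factor of thyrotrophs and gonadotrophs, 8.88 against 17.0 (log2 -0.87). POU1F1, a factor of the growth hormone, prolactin and thyrotropin lineage, was near its unexposed level (log2 -0.01), and HEY1 was the member above 0 (log2 0.16). With the ratios centred on the pituitary lists, or with a median-of-ratios scaling, 2 of 19 were at least 2-fold lower and the list's median stayed negative.

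Genes of the intermediate lobe were divided. PAX7, the factor that defines melanotrophs (ENSCAFG00000015539, chromosome 2, 79817700 to 79914949), read 1.33 FPKM in the stressed and 10.0 in the unexposed library, and 10.1 and 4.93 in the stressed and unexposed Beagle (log2 -2.24, interval -3.52 to -2.35). It was the member that was at least 2-fold lower. DRD2, the dopamine receptor that restrains melanotrophs and lactotrophs, read 18.3 FPKM against 36.5, and 40.2 and 37.6 in the stressed and unexposed Beagle. PCSK2, the convertase that cuts POMC further in melanotrophs, read 32.6 against 53.7, with 60.4 and 31.5 in the Beagle. The GABA receptor genes GABRA2 and GABRG1 and the growth factor gene PTN were higher by log2 1.54, 1.68 and 1.13, and all 3 are also genes of brain tissue. The list's median of -0.17 changed sign when genes under the filter were kept, so no direction is given for it.

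Of 9 posterior lobe genes 8 were lower, with a median log2 ratio of -0.91, and 3 were at least 2-fold lower beside 1.7% of all genes. OXT, the oxytocin gene, read 12.5 FPKM in the stressed and 55.7 in the unexposed library, and 69.8 in the stressed and 21.0 in the unexposed Beagle (interval of the log2 ratio -2.66 to -1.68). RAX, a factor of pituicytes, read 0.149 against 4.98 FPKM on 2 reads against 73, with 6.28 and 2.67 in the Beagle. ADM, the vessel-widening peptide adrenomedullin, read 2.33 against 11.6, with 14.1 and 4.44 in the Beagle. All 3 genes were higher in the stressed than in the unexposed Beagle, the opposite order to the Chinese Field Dog. The same held for LHX2 and VIM, at 7.45 against 14.9 and 71.9 against 138 FPKM in the Chinese Field Dog and 14.4 against 4.40 and 144 against 69.2 in the Beagle. In the Beagle 8 of the 9 were higher in the stressed library (median log2 1.03), beside 49.6% of all genes, and the difference between breeds was not tested. The labels do not say how much posterior lobe each sample held.

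Receptor and regulator genes of the other endocrine cells were divided. Of 15 gonadotroph genes 14 were lower, beside 53.4% of all genes (median log2 -0.40), among them the gonadotropin-releasing hormone receptor gene GNRHR at 10.6 against 15.8 FPKM, with 12.1 and 8.64 in the Beagle. Among 14 somatotroph and lactotroph genes the growth hormone-releasing hormone receptor gene GHRHR read 41.1 against 36.6, and the ghrelin receptor gene GHSR 13.4 against 13.5. DLK1, an imprinted growth regulator, read 3.74 against 16 FPKM, and 7.14 against 19.4 in the Beagle, so it was lower in the stressed library of both breeds. Medians of the somatotroph, corticotroph, thyrotroph and granule lists lay between -0.04 and 0.13, and the sign of each depends on the scaling or filter.

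Corticotroph genes illustrate the mixture. The receptors for corticotropin-releasing hormone and glucocorticoid, CRHR1 and NR3C1, were nearly equal at 38.7 against 38.5 and 26.2 against 26.2 FPKM, while TBX19 was lower as given above. CRHBP, the binding protein of corticotropin-releasing hormone, read 13.5 against 0.0661, on 375 reads against 2, and POU3F2 read 2.01 against 0. Both are also expressed by cortical neurons, as are SSTR2 (10.2 against 2.84) and, in the somatotroph list, VIP (22.0 against 0.0516). Prohormone processing and granule genes were 12 higher and 11 lower, with the granins CHGA and SCG3 near equal (log2 -0.01 and -0.03) and the neuropeptide precursor VGF at 17.4 against 3.57.

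Genes of supporting cells were lower in number more often than higher. Of 17 folliculostellate and stem cell genes 13 were lower, beside 53.4% of all genes (median log2 -0.47). At least 2-fold lower was 1, beside 1.7% of all genes, and 2 were at least 2-fold higher, beside 7.85%. Among the lower were the epithelial adhesion genes EPCAM at 193 against 268 FPKM and CDH1 at 32.6 against 53.3. S100B, which folliculostellate cells share with astrocytes, read 83.8 against 2.37, with 5.11 and 0.505 in the Beagle. Of 25 fibroblast and matrix genes 22 were lower, beside 53.4% of all genes (median log2 -0.59). At least 2-fold lower were 3 of the 25, beside 1.7% of all genes, and 1 was at least 2-fold higher, beside 7.85%. The summed level of the list was 881 FPKM against 798. The stressed library was the lowest of the 4 for 18 of 25, beside 41.0% of all genes. POSTN, the matrix protein periostin, read 5.12 FPKM against 17.3, and 7.84 and 14.6 in the stressed and unexposed Beagle. Collagen gene COL5A1 read 4.78 against 14.3, with 14.1 and 7.44 in the Beagle, and the proteoglycan gene DCN read 50.9 against 97.8, with 96.8 and 74.8. The exceptions were THY1, which neurons carry at high level, at 124 against 22.0, SPARC at 404 against 234, and FN1 (log2 0.09).

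Vessel genes were near equal, with PECAM1, VWF, KDR and TEK at log2 ratios of -0.02, 0.05, 0.07 and 0.07. Of 20 endothelial members 2 were 2-fold higher, a share near the 7.85% of all genes: SLC7A5, an amino acid transporter, at 19.7 against 6.22 FPKM, and MFSD2A, a lipid transporter, at 7.14 against 2.95. PLVAP, the diaphragm protein of fenestrated vessels such as those of the pituitary, read 51.8 against 80.5, with 61.5 and 72.9 in the Beagle. Of 22 nuclear respiratory chain genes 19 were higher, beside 46.6% of all genes (median log2 0.28), with COX4I1 at 310.3 against 211 FPKM. Of 22 ribosomal protein genes 20 were lower, beside 53.4% of all genes (median log2 -0.15), as were 14 of 17 proliferation genes (median log2 -0.29), 0 of either by 2-fold. Airway and salivary epithelium genes, a marker of tissue outside the gland, were lower in 9 and higher in 2 of 11 matched members, with SCGB1A1 at 1.32 against 3.11, and 5.47 and 55.0 in the stressed and unexposed Beagle. Of 8 erythroid genes 2 were measured, with a median log2 ratio of -0.39.

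Among genes of the immune lists, the chemokines CCL5 and CXCL10 had the highest log2 ratios. CCL5, which draws T cells and monocytes (ENSCAFG00000018171, chromosome 9, 37817390 to 37823880), read 138 FPKM in the stressed and 6.68 in the unexposed library, and 2.65 and 3.45 in the stressed and unexposed Beagle. Between the 2 Chinese Field Dog libraries the level was 20.7-fold higher in the stressed one (log2 4.18, interval 4.04 to 4.73), and both Beagle libraries lay below these 2. In the adrenal cortex of the same breed CCL5 read 19.3 in the stressed and 11.3 in the unexposed library. CXCL10, an interferon-induced chemokine for activated T cells (ENSCAFG00000008584, chromosome 32, 597633 to 600003), read 105 against 9.71 FPKM, with 5.89 and 2.08 in the Beagle pituitary and 53.2 and 38.2 in the stressed and unexposed Chinese Field Dog adrenal cortex. CCL4, a chemokine of activated macrophages and T cells, read 18.1 against 2.80, with 1.52 and 0.780 in the Beagle.

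Of 23 matched chemokine genes 17 were higher and 4 lower. Of the 15 measured 12 were higher, beside 46.6% of all genes, and 6 were at least 2-fold higher, beside 7.85%. CCL2, which recruits monocytes, read 13.2 against 4.83 FPKM, and 4.83 against 2.06 in the Beagle. CXCL12 and CXCL16, which many tissues make at rest, were near equal at 115 against 116 and 10.9 against 10.8, and CCL26, an eosinophil chemokine, was the member that was 2-fold lower, at 0.137 against 2.57 on 2 against 41 reads. CXCL14, a chemokine of epithelia that is in the folliculostellate list as well, read 71.7 against 30.8 in the Chinese Field Dog and 70.4 against 12.8 in the Beagle.

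T cell and natural killer cell genes were mostly higher. Of 42 matched members 34 were higher and 7 lower (median log2 0.56), and 17 of the 42 stayed under the filter. Of the 25 measured 22 were higher, beside 46.6% of all genes, and 9 were at least 2-fold higher, beside 7.85%. CD3E, a chain of the T cell receptor complex, read 12.8 FPKM against 4.77, and 0.584 and 0.948 in the stressed and unexposed Beagle. CD8A, which marks cytotoxic T cells, read 4.60 against 0.665, with 0.277 and 0.628 in the Beagle. GZMK, a granzyme of memory CD8 cells, read 22.4 against 1.65 (361 reads against 29), with 1.36 and 2.11 in the Beagle. All 3 were highest in the stressed Chinese Field Dog, and CD3E was higher in both Chinese Field Dog libraries than in both Beagle libraries.

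Cytotoxic genes were not all higher. GZMB, a granzyme of killer cells, read 30.7 FPKM against 26.9, with 1.10 and 1.13 in the Beagle, a level common to both Chinese Field Dog libraries (log2 0.18, interval -0.01 to 0.39). TBX21, IL2RB and LAG3 were lower by point estimate, with log2 ratios of -0.30, -0.50 and -0.50. Of the whole list, the genes other than GZMB and LAG3 were under 5 FPKM in the unexposed library, and over those 2 alone the list's median was -0.16. Of 18 matched B and plasma cell genes 13 were higher and 5 lower, and of the 11 measured 7 were higher, beside 46.6% of all genes. The immunoglobulin joining chain gene IGJ read 98.7 against 45.5 and MZB1 6.35 against 1.39. The B cell gene CD22 was near equal (log2 0.05), and MS4A1 and PAX5 had at most 3 reads.

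Resident macrophage genes were near equal. Of 26 measured 15 were higher, beside 46.6% of all genes, and 11 lower, with 1 at least 2-fold higher, beside 7.85%. The small median of 0.07 turned negative under reads-per-million scaling. CSF1R, the growth-factor receptor of macrophages, read 26.0 against 26.8 FPKM, with 18.8 and 14.5 in the Beagle. P2RY12, a receptor of brain microglia, was the member above 2-fold at 4.74 against 1.51, but the other microglial genes TMEM119 and CX3CR1 were level at 1.33 against 1.19 and 12.6 against 11.9. CD163, a scavenger receptor of perivascular macrophages, read 4.19 against 9.18.

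The higher lymphocyte and chemokine values stand in the library that also carries the forebrain transcripts, at 2.40% against 0.937% of reads in the neuron and glia lists, and the part of these in the immune values was not tested.

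Mast cell genes were lower. In the list of neutrophil and mast cell genes 11 of 14 matched members were lower and 3 higher, and 4 of the 8 measured were at least 2-fold lower beside 1.7% of all genes. CPA3, the mast cell carboxypeptidase (ENSCAFG00000008235, chromosome 23, 43719029 to 43748625), read 2.89 FPKM in the stressed and 15.2 in the unexposed library, and 7.58 in the stressed and 3.36 in the unexposed Beagle. MS4A2, a chain of the immunoglobulin E receptor, read 1.39 against 4.87, with 2.61 and 1.16 in the Beagle, and CMA1, chymase, read 2.54 against 6.29, with 3.44 and 1.4. All 3 were lower in the stressed Chinese Field Dog library and higher in the stressed Beagle library than in the matching unexposed ones. HDC, the histamine-forming enzyme, had 6 reads against 24. Neutrophil genes in the same list rested on few reads or were shared with epithelia, as with LTF at 10.5 against 24.6 FPKM.

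**Figure D3:**
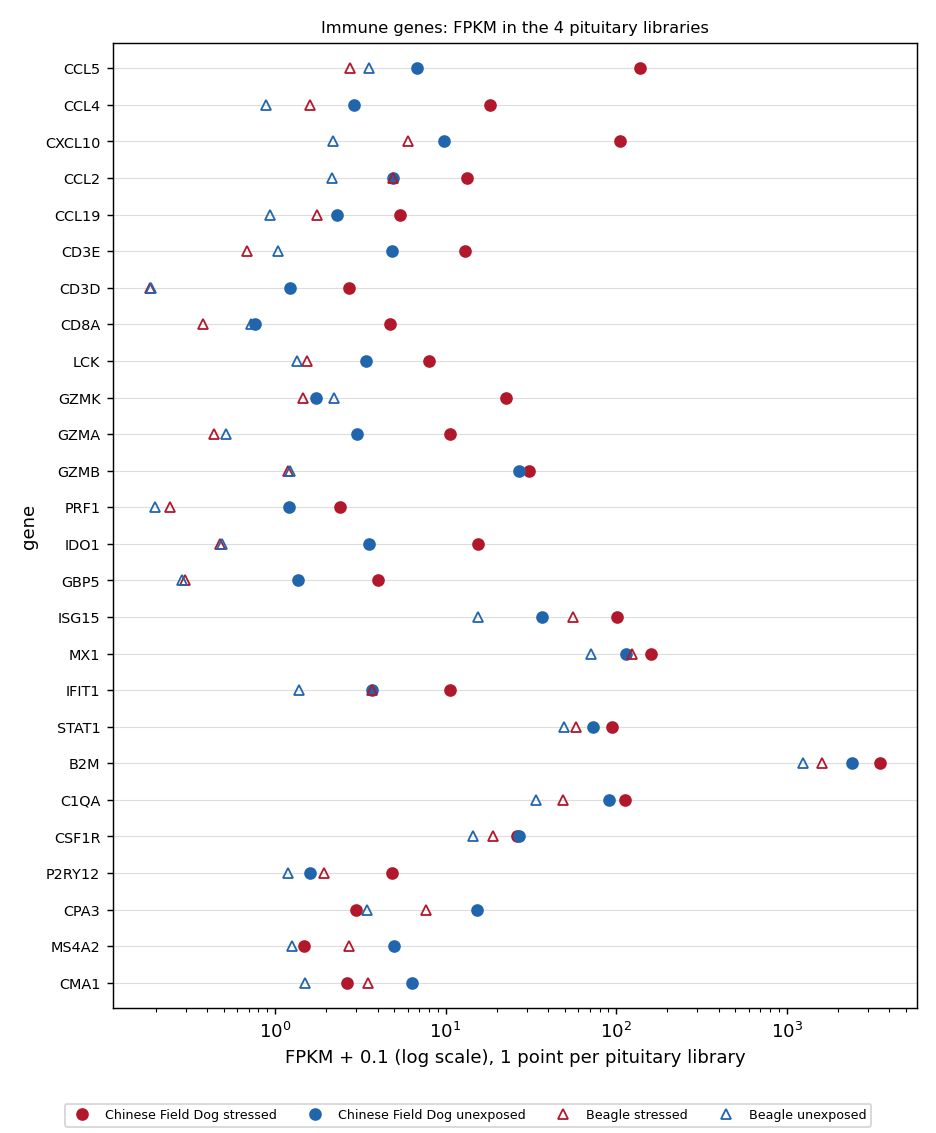
FPKM plus 0.1 (x axis, log scale) of 26 immune genes in the 4 pituitary libraries, 1 point per library, with filled circles for Chinese Field Dog, open triangles for Beagle, red for stressed and blue for unexposed. CCL5, CXCL10 and GZMK stand far to the right in the stressed Chinese Field Dog, GZMB is high in both Chinese Field Dog libraries, and CPA3, MS4A2 and CMA1 are highest in the unexposed Chinese Field Dog.

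All 36 matched interferon-response genes were higher, and of the 35 measured, with a median log2 ratio of 0.54, 9 were at least 2-fold higher, beside 7.85% of all genes. In the Beagle pair 33 of the same 35 were higher (median 0.60), and 33 were higher in both pairs beside 22.7% of all genes. The stressed Chinese Field Dog library was the highest of the 4 pituitary libraries for 32 of 35, beside 33.1% of all genes. IDO1, an enzyme of tryptophan breakdown induced by interferon gamma, read 15.4 FPKM against 3.47, and 0.379 and 0.392 in the stressed and unexposed Beagle. IFIT1, an antiviral RNA sensor, read 10.5 against 3.62, and 3.61 against 1.29 in the Beagle. IDO1 and GBP5 (3.92 against 1.26, with 0.198 and 0.185 in the Beagle) were separated by breed, while IFIT1 was higher in the stressed library of each breed.

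IRF7, a factor that amplifies the interferon response, read 23.7 against 13.0 FPKM in the Chinese Field Dog and 15.1 against 8.07 in the Beagle, and RSAD2, the antiviral protein viperin, read 3.38 against 1.15 and 1.25 against 0.277. Of 17 class I antigen presentation genes 11 were higher, beside 46.6% of all genes (median log2 0.15), and 1 was at least 2-fold higher, beside 7.85%. Under reads-per-million scaling that median was 0.04. B2M, the light chain of class I molecules, read 3528 FPKM against 2416, with 1604 and 1240 in the Beagle, and TAP1, the peptide transporter, read 62.8 against 36.1, with 29.2 and 21.0. DLA-79, a class I gene of the dog, read 235 against 112, but class I genes are near copies of each other and reads may be shared among them. Of 9 measured class II genes 5 were higher and 4 lower, 0 by 2-fold, with DLA-DRB1 at 254 against 257 and CIITA, their master regulator, at 3.42 against 2.21.

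Inflammatory mediators were evenly divided. Of 22 measured cytokine and inflammatory genes 11 were higher and 11 lower, with SELE, a leukocyte-capturing molecule of vessels, at 3.09 against 0.857 FPKM, ICAM1 at 6.28 against 3.18, STAT3 at 42.2 against 43.4 and NFKBIA at 40.9 against 50.2. The genes for interleukins 1 and 6 and TNF were under 1 FPKM on average. Complement genes were 5 higher and 7 lower, with C3 at 36.8 against 34.8.

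Genes tied to stress signalling differed little in the pair. Glucocorticoid receptor targets numbered 9 higher and 14 lower, 0 of 23 by 2-fold, and the sign of their median (-0.08) changed with the scaling. FKBP5, a chaperone that damps the receptor, read 37.6 FPKM against 39.8, and 53.6 and 80.3 in the stressed and unexposed Beagle. TSC22D3, an anti-inflammatory target, read 19.8 against 19.3, with 22.1 and 32.1, and PER1, a clock gene and target, read 34.7 against 31.2, with 36.7 and 70.8. For these 3 genes the Chinese Field Dog libraries were close to each other and the unexposed Beagle stood above the other 3. TXNIP, a regulator of glucose uptake, read 47.3 against 91.2, and the fuel-switch kinase gene PDK4 read 17.9 against 30.7.

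Immediate-early genes were 16 higher and 13 lower, with FOS at 88.9 against 62.2 FPKM, EGR1 at 37.5 against 41.6 and NR4A1 at 33.5 against 16.8. EGR3, a factor of active neurons, was the member above 2-fold at 4.90 against 0.114, and DUSP6, which ends ERK signalling, was the member below at 23.4 against 48.6. Heat-shock chaperones were 12 higher and 7 lower (median log2 0.13), led by HSPA4L at 36.3 against 15.9 and HSPH1 at 97.2 against 55.4. In the Beagle 19 of 19 were lower in the stressed library, beside 49.9% of all genes. Of 24 genes of endoplasmic-reticulum stress 17 were lower, beside 53.4% of all genes (median log2 -0.27), 0 of them by 2-fold, with the chaperones HSPA5 at 275 against 373 FPKM and CALR at 336 against 492. Clock and oxidative-stress genes had medians of 0.06 and -0.07, whose signs depend on the scaling.

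The 15 lowest ratios among 11744 genes with a unique symbol and at least 100 reads were read in all 4 pituitary libraries. SCTR, the secretin receptor (ENSCAFG00000004889, chromosome 19, 30525508 to 30577075), read 1.51 FPKM in the stressed and 18.6 in the unexposed library, and 18.8 in the stressed and 4.85 in the unexposed Beagle. FGF10, a growth factor of the ventral diencephalon that patterns the gland, read 10.8 against 53.9, with 62.8 and 21.5 in the Beagle. IGFBP2, a carrier of insulin-like growth factors, read 13.5 against 70.1, with 61.0 and 46.7. The stressed Chinese Field Dog library was the lowest of the 4 for 15 of the 15, as the rule makes likely, and the unexposed Beagle lay below both remaining libraries for 14. Ranking on a high unexposed Chinese Field Dog value favours this in part. Over all 250 genes that were 2-fold lower, the unexposed Beagle lay below the stressed Beagle for 162, beside 49.6% of all genes.

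Other members were the desmosome gene DSC3 (3.22 against 16.2 FPKM, and 29.99 against 6.19 in the Beagle), the Wnt receptor gene FZD5 (6.42 against 27.8, and 29.8 against 11.3), the kinase gene NRK (0.559 against 6.41, and 7.88 against 2.27) and the collagen gene COL13A1 (2.39 against 13.7, and 19.4 against 6.37). In the Beagle 9 of the 15 were at least 2-fold higher in the stressed library. S100A5 was the member in which the unexposed Beagle was not next lowest, at 26.9, 118, 161 and 190.1 FPKM in the same sequence of libraries. Its reads differed less than its FPKM (interval of the log2 read ratio -1.71 to -1.25). Of all 250 genes that were 2-fold lower in the Chinese Field Dog, 43 were at least 2-fold higher in the stressed Beagle and 14 at least 2-fold lower, beside 1.25% and 1.09% of all genes in the Beagle pair. Of the 1155 that were 2-fold higher, the counts were 36 and 21.

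**Figure D4:**
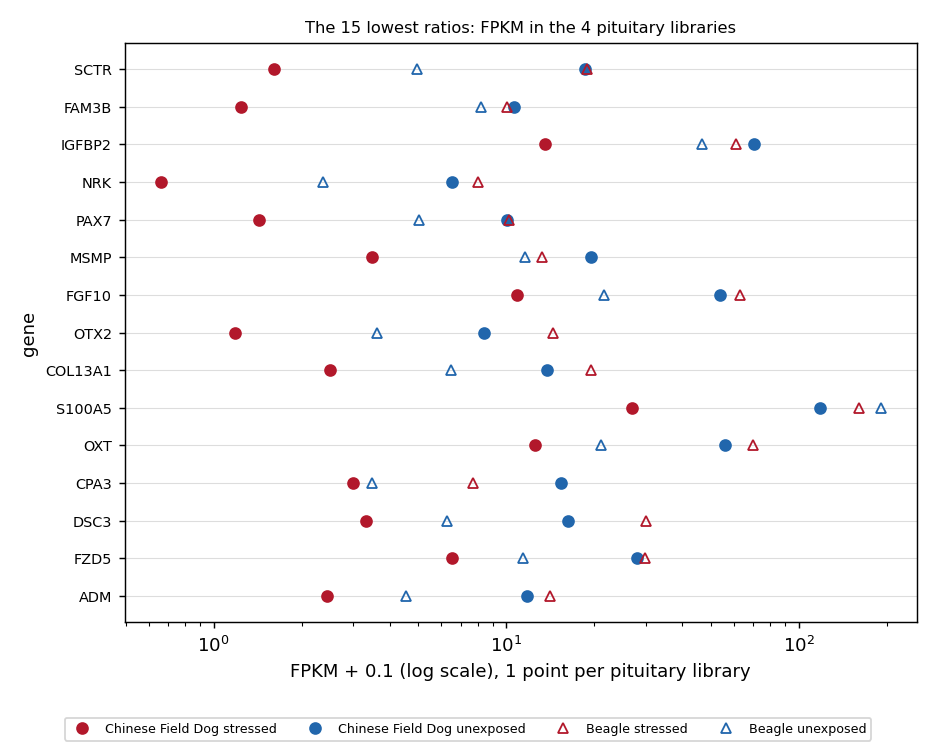
FPKM plus 0.1 (x axis, log scale) of the 15 genes with the lowest ratios, 1 point per pituitary library, with filled circles for Chinese Field Dog, open triangles for Beagle, red for stressed and blue for unexposed. The stressed Chinese Field Dog is lowest in 15 of 15 and the unexposed Beagle comes next in 14, S100A5 being the exception.

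Where only genes with at least 5 FPKM in the unexposed library and a unique symbol were ranked (9508 genes), the forebrain lists held 3 of the top 15, against 11 when that level was not required. The lists miss other neural genes there, such as GLAST, STMN4, DNM1, FABP7 and ENC1, so that these counts do not show fewer neural genes. GDPD2, a membrane phosphodiesterase, read 204 FPKM against 8.43, with 11.9 and 8.76 in the Beagle. DNM1, the neuronal dynamin of vesicle recycling, read 170.0 against 7.58, FABP7, a fatty-acid carrier of glia, 111 against 7.13, and ENC1, an actin-binding protein of neurons, 144 against 10.9. CCL5 and CXCL10 were the immune genes among these 15. The 15 lowest under this rule were the same 15 genes.

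Set against the other 3 pituitary libraries together, the stressed Chinese Field Dog was the one that lay outside most often. It was at least 2-fold above the highest of the others for 906 of 14722 genes (6.15%) and at least 2-fold below the lowest for 74 (0.503%). The corresponding counts were 44 and 12 for the unexposed Chinese Field Dog, 46 and 25 for the stressed Beagle and 72 and 46 for the unexposed Beagle. Of the neuron and glia genes 88 of 138 lay 2-fold above the other 3, as did 9 of 25 measured T and natural killer cell genes, 5 of 15 chemokines and 5 of 35 interferon genes. Of the hormone genes 2 of 7 lay 2-fold below, POMC and TSHB.

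The one test that the design allows treats the breeds as replicates of the exposure. Limma, fitted on all 8 libraries with 2 residual degrees of freedom, called 1 of 14722 genes (0.00679%), an unnamed gene on at most 1 read, and 703 had an unadjusted p under 0.05. EdgeR's quasi-likelihood test called 0, with 770 at an unadjusted p under 0.05, and DESeq2 called 62. No gene of any list passed in limma's fit, where GABRG1, a GABA receptor subunit that melanotrophs and brain share, had the lowest adjusted p among them, 0.471, with 11.3 against 2.84 FPKM in the Chinese Field Dog and 3.83 against 0.565 in the Beagle. ISG15, the interferon-induced ubiquitin-like protein, read 102 against 36.8 FPKM in the Chinese Field Dog and 56.2 against 15.5 in the Beagle, a limma log2 difference of 1.62 with an SE of 0.17 and a Benjamini-Hochberg adjusted p of 0.861 (higher in 2 of 2 breeds). In limma's fit 22 of the 35 interferon genes, 5 of 14 chemokines and 7 of 20 oligodendrocyte and myelin genes had an unadjusted p under 0.05, beside 703 of 14722 genes. The same held for 0 of 9 posterior lobe and 0 of 7 hormone genes, which says little at that share of all genes. Libraries that differ in breed or exposure come from different dogs, but no label says whether pituitary and adrenal libraries share dogs. The residual spread in this fit is the difference between the breeds in the exposure ratio within each tissue. Differences between dogs, breeds and technical spread cannot be told apart in it, and the p-values speak only to that spread.

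**Figure D5:**
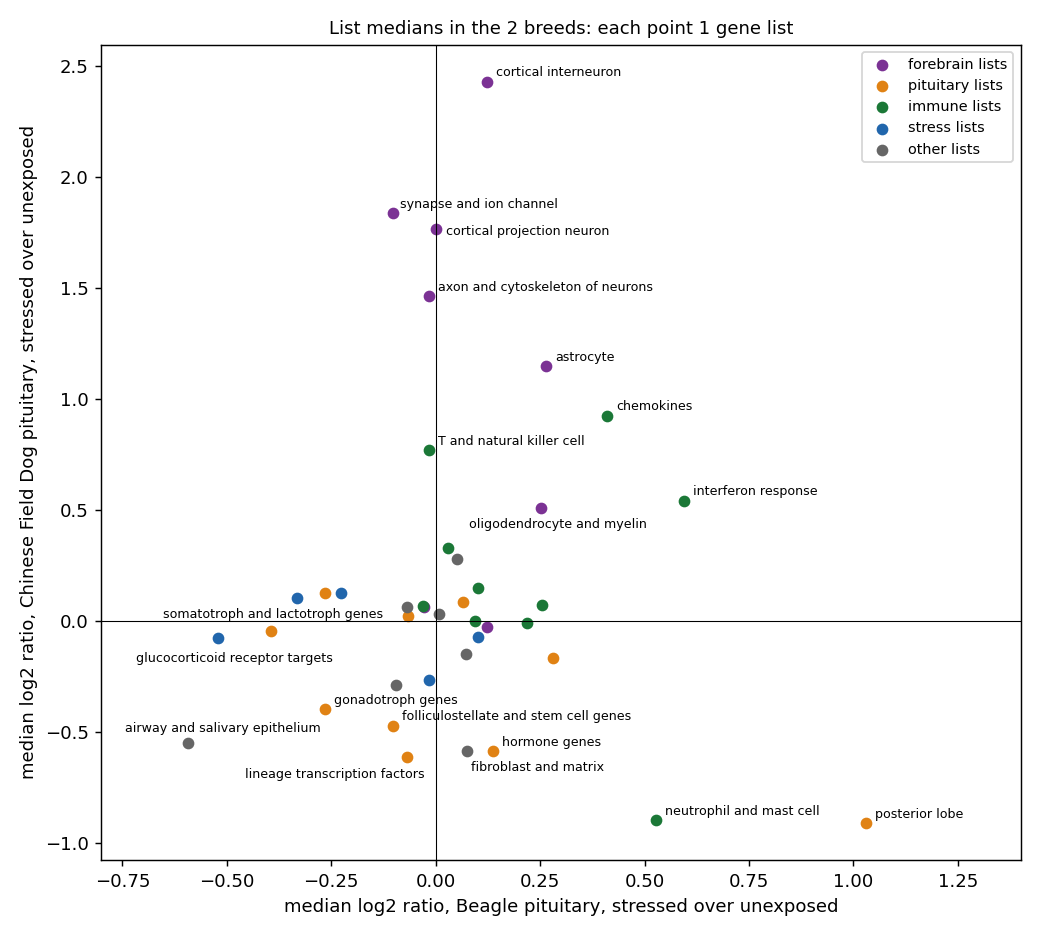
Each point is 1 gene list, with its median log2 ratio of stressed over unexposed in the Beagle pituitary (x axis) and in the Chinese Field Dog pituitary (y axis). Interferon genes lie above 0 in both (0.60 and 0.54), neuron lists are high in the Chinese Field Dog only, and the posterior lobe and mast cell lists lie at the lower right, at 1.03 and -0.91 and at 0.53 and -0.90. Neither pair has replicates.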

How the data were processed

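RNA was measured by sequencing of TruSeq libraries on a Genome Analyzer IIx, per the labels' protocols. The submitters' processing notes name TopHat, without a version, and the build CanFam3.1, while the counting tool and annotation are not given in the sources used here. The deposited tables give FPKM per gene, made by the authors, and scaled counts, taken as a signal whose deposited values are multiples of 1 step per library. Dividing by that step gave whole reads (within 0.02) for 98.7% to 99.1% of values. For the stressed Chinese Field Dog pituitary and stressed Beagle adrenal libraries the step was 1.02 and 1.01, so their recovered reads are near the true counts, not exact.

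The authors deposited 8 tables, of which 4 were used, and ratios, p-values and flags in them were not. Log2 ratios used a pseudocount of 1 FPKM over genes with a mean of at least 1 FPKM over the pair. A gene was counted at 2-fold. Symbols were taken from the tables: of 24580 genes 18986 carried one, 16080 of them used once, and 793 of 923 list entries were matched. GH1 and RRBP1, listed at 0 in the unexposed Beagle pituitary, were left out of its ratios. The 4 pituitary libraries were also fitted with the 4 adrenal ones in limma on log2 FPKM, with edgeR's quasi-likelihood test and DESeq2 on recovered reads as alternatives. P-values were adjusted over all genes by the Benjamini-Hochberg method. Limma, edgeR and DESeq2 were also run on simulated counts with the same spread for all genes, which these libraries need not follow. That run does not vouch for the calls made here.

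Genes outside the 41 lists were named as the 15 highest and 15 lowest ratios with a unique symbol and at least 100 reads, the same with at least 5 FPKM unexposed, and the 15 most abundant genes with a unique symbol and under 0.5 FPKM in the other 7 libraries. List members were named by abundance or size of ratio. The members and lists were chosen with earlier results of these data known. Alternatives were a pseudocount of 0.1, other filters, 3 scalings and leaving out each breed. Tools were R 4.3.3, limma 3.58.1, edgeR 4.0.16, DESeq2 1.42.0, Python 3.11.15, numpy 2.4.6, pandas 2.3.3, scipy 1.17.1 and matplotlib 3.10.9.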

Additional observations from a re-analysis of the deposited data

Results flagged for a closer look

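The posterior lobe genes had a median log2 ratio of -0.91 in the Chinese Field Dog pituitary and 1.03 in the Beagle pituitary. The neutrophil and mast cell genes had medians of -0.90 and 0.53. Both lists were picked out because their medians lay on opposite sides of 0, at least 0.5 in size, in the 2 breeds. With 1 library per group, the difference was not tested.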

How the results depend on the processing

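A requirement of at least 5 FPKM in the unexposed library, chosen after seeing the data, left 486 genes 2-fold higher, and 2-fold higher counts of 42 for neuron and glia, 0 for T and natural killer cell, 3 for chemokine and 2 for interferon genes; fewer genes were then considered. With a pseudocount of 0.1 FPKM 426 genes were 2-fold lower and 168 lay 2-fold below the other pituitary libraries, 14 T and natural killer cell genes were 2-fold higher and 5 matrix genes 2-fold lower, and limma called 2 genes. With a median-of-ratios scaling, and with ratios centred on the pituitary lists, 1 hormone gene and 2 lineage factors were 2-fold lower. With reads scaled to the total over genes that the unexposed library expresses, 5 posterior lobe and 7 matrix genes were 2-fold lower. Over both breeds edgeR called 0 genes, DESeq2 called 62, limma called 0 with at least 50 reads, and leaving out 1 breed gave 42 to 61, where the remaining pair is assumed to vary like the adrenal libraries. The cause of these differences was not tested. Of 87 such alternative counts 66 stayed within 1.5 times. The median log2 ratio of all genes, -0.03, became 0.10 when centred on the pituitary lists and -0.15 with that read total, and 17 of 41 list medians changed sign under some setting. Of named-gene ratios 345 of 382 were counted as staying within counting error. Of list medians 259 of 293 moved by less than the counting error of a typical single gene of the list. That yardstick is wider than the counting error of a median, so the count of 259 does not show that the medians were stable. Named genes with 0 reads in 1 library of the pair, such as NEUROD6 and TBR1, have no upper bound. They were counted as staying whatever the setting gave, so the count of 345 says nothing about them. No paired analysis was possible because each group has 1 library and the labels carry no replicate numbers. Genes on few reads, such as CD8A or PVALB, have wide intervals at this depth, and an interval covers counting error only.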
